A study of Homo sapiens with 9 samples.

Results

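The 9 genes described here, WNT antagonists with 1 R-spondin and the related *DKK3*, encode secreted or membrane proteins. They were followed in human extra-embryoids (hEEs): *SFRP1*, *SFRP2*, *FRZB*, *DKK1*, *DKK3*, *SHISA2*, *RSPO3*, *NOTUM* and *APCDD1*. They were chosen by symbol and not by a limit on level, with earlier results of these data known. All 9 had a row among the 36601 genes of both count tables. hEEs were grown without experimental treatment from the wild-type human embryonic stem cell line ESI017. The line had been kept on mouse feeder cells in human expanded potential medium. By the paper's methods, this medium also held the WNT inhibitor IWR-1 and a ROCK inhibitor. The hEEs were aggregated in microwells, with a ROCK inhibitor during the first day. They passed from a medium for spontaneous differentiation to the embryo culture medium mIVC2 and were collected on day 4 (D4) or day 6 (D6). Structures with an inner and an outer compartment were selected by eye under the microscope, pooled over wells of independent cultures and dissociated for droplet-based sequencing of transcript 3′ ends, with 1 library for each day. Both groups therefore shared the line, its genotype, the order of media and the selection. They differed in time in culture, and so in time spent in mIVC2. The cultures came from different clones and passage numbers of the line. The paper reports that D4 and D6 cells lay well apart, which it took as potential experimental variation and corrected by integration. The counts used here were not corrected in that way. With 1 library a day, no test between D4 and D6 was possible, and intervals in square brackets are 95% intervals that cover counting error only.

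WNT ligands carry a lipid that lets them dock on Frizzled receptors, with LRP5 or LRP6 as co-receptor, and this stabilizes β-catenin. Secreted Frizzled-related proteins (SFRP1, SFRP2 and FRZB) bind the ligands, DKK1 blocks LRP5 and LRP6, SHISA2 holds Frizzled and FGF receptors back in the endoplasmic reticulum, NOTUM removes the lipid, and APCDD1 is a membrane inhibitor. R-spondin 3, encoded by *RSPO3*, works the other way: through LGR receptors it keeps ZNRF3 and RNF43 from clearing Frizzled. DKK3 is a divergent Dickkopf protein without a settled role in the pathway. In the mouse embryo, the anterior visceral endoderm (AVE), a patch of the extra-embryonic endoderm, secretes such antagonists together with CER1 and LEFTY1, on the side opposite to the primitive streak.

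The D4 library held 151712246 unique molecular identifiers (UMIs) in 10943 cells and the D6 library 150320228 in 11483 cells. Limits on depth and on mitochondrial UMIs kept 9151 and 10097 of them, and 40 barcodes occurred in both libraries. Cells were sorted by UMIs of genes that are no members. The embryonic gate took cells with at least 5 UMIs of *POU5F1*, at least 1 of *SOX2* and at most 2 of *FN1*, which gave 3716 cells at D4 and 5054 at D6, with median depths of 15157.5 and 14225.5 UMIs. The hypoblast gate took cells with at least 3 UMIs of *FN1*, none of *SOX2* and at most 5 of *POU5F1*, which gave 4061 and 3567 cells, with median depths of 11012 and 10902. Within it, 558 cells of D4 and 116 of D6 had 2 or more UMIs of *CER1*, a secreted antagonist of the AVE, and are called CER1 cells. A gate is a set of UMI limits and not a cell type, and 1374 and 1476 kept cells met neither. The gates were checked against marker lists. Levels are given as CPM, the UMIs of a gene per 1000000 UMIs of the cells summed. In the embryonic gate 11 epiblast markers, the gate genes *POU5F1* and *SOX2* among them, summed to 4802 and 5164 CPM, against 856 and 826 in the hypoblast gate, where *SOX2* was at 0 by the rule. In the hypoblast gate 11 hypoblast markers, *FN1* among them, summed to 4592 and 17195, against 234 and 249 in the embryonic gate. Of these sums in the hypoblast gate, *APOA1* alone made up 1621 and 11926, so the higher sum at D6 does not stand for the list. No trophoblast marker of 7 reached 1 CPM in any gate.

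The promoters of 4 members are shown because the results turn on these genes: *SFRP2*, which was high in the embryonic gate, *FRZB* and *RSPO3*, which were high in the hypoblast gate, and *DKK1*, whose UMIs lay in few cells. RefSeq windows of 300 bases on GRCh38.p14 were at hand for 6 of the 9 members, each from 250 bases before the transcription start to 50 after it, and the 4 are printed 5′ to 3′ on the strand of the gene. They lie at chr4:153789034-153789333 (minus strand) for *SFRP2*, chr2:182866588-182866887 (minus) for *FRZB*, chr6:127118421-127118720 (plus) for *RSPO3* and chr10:52314031-52314330 (plus) for *DKK1*, and cover the upstream flank and the first transcribed bases of each gene. Capitals mark matches, on either strand, to 5 short motifs: the core CTTTGA for TCF/LEF factors, the sequence AGATAA for GATA factors, the sequence TGTTTAC for FOXA factors, the octamer ATGCAAAT bound by POU factors, and the TATA box TATAAA.
SFRP2: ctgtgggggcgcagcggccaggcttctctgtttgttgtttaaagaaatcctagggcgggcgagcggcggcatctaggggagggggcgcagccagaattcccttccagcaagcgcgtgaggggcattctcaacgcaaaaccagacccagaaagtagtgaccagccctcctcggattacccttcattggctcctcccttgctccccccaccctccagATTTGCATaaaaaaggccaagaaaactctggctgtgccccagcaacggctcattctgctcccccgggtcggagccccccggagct
FRZB: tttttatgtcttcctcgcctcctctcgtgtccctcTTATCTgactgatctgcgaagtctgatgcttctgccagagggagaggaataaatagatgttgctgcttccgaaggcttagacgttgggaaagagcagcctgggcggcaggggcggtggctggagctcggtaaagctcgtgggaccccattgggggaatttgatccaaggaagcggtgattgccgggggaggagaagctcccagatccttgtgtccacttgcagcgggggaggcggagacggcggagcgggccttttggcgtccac
RSPO3: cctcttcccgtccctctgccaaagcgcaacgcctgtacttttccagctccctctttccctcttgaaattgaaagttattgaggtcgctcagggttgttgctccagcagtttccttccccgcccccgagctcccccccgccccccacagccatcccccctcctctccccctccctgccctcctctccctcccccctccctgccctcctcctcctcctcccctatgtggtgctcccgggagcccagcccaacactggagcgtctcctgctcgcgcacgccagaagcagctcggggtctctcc
DKK1: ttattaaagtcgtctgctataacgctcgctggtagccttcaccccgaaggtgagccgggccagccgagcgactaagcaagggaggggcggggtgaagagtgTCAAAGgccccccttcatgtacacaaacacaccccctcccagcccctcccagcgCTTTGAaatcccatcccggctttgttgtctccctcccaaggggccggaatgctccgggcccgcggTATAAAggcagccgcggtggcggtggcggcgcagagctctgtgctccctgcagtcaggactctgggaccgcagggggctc
The *DKK1* window held 2 TCF/LEF matches, which began 149 and 95 bases before the start, and a TATA box that began 30 bases before it. Of 35116 windows of this length, 12.9% held the TCF/LEF motif and 11.5% the TATA box. In *SFRP2* the octamer began 35 bases before the start, a motif found in 1.77% of windows, and in *FRZB* a GATA match began 215 bases before it, as in 10.3% of windows. The *RSPO3* window held none of the 5, nor did those of *SHISA2* and *APCDD1*. A FOXA match, present in 3.42% of windows, was in none of the 6. These matches are descriptions of the letters. The windows of the 4 printed genes had GC contents between 58.3% and 65.3%, beside a median of 58.7% over all windows.

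At D4, 7 of the 9 members were more than 2-fold higher in the hypoblast gate than in the embryonic gate and 1 was more than 2-fold lower, the size used here to call a difference. Among all 20214 genes compared, 15.2% were higher by that much and 16.5% lower. At D6 the members counted 6 higher and 1 lower, beside 14.7% and 22.2% of 20708 genes. The 2 genes outside these counts at D6 were *SFRP1* and *SHISA2*. From D4 to D6, *RSPO3* and *DKK1* were more than 2-fold higher in the hypoblast gate and *SHISA2* more than 2-fold lower, which makes 2 and 1 of 9 members, beside 6.4% and 6.02% of 19306 genes. In the embryonic gate 1 member, *RSPO3*, was over 2-fold higher at D6 and 0 were lower, beside 5.43% and 2.02% of 20639 genes. The median log2 ratio of the members, hypoblast gate over embryonic gate, was 1.84 at D4 and 2.12 at D6, against −0.05 and −0.17 over all genes.

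**Figure D1:**
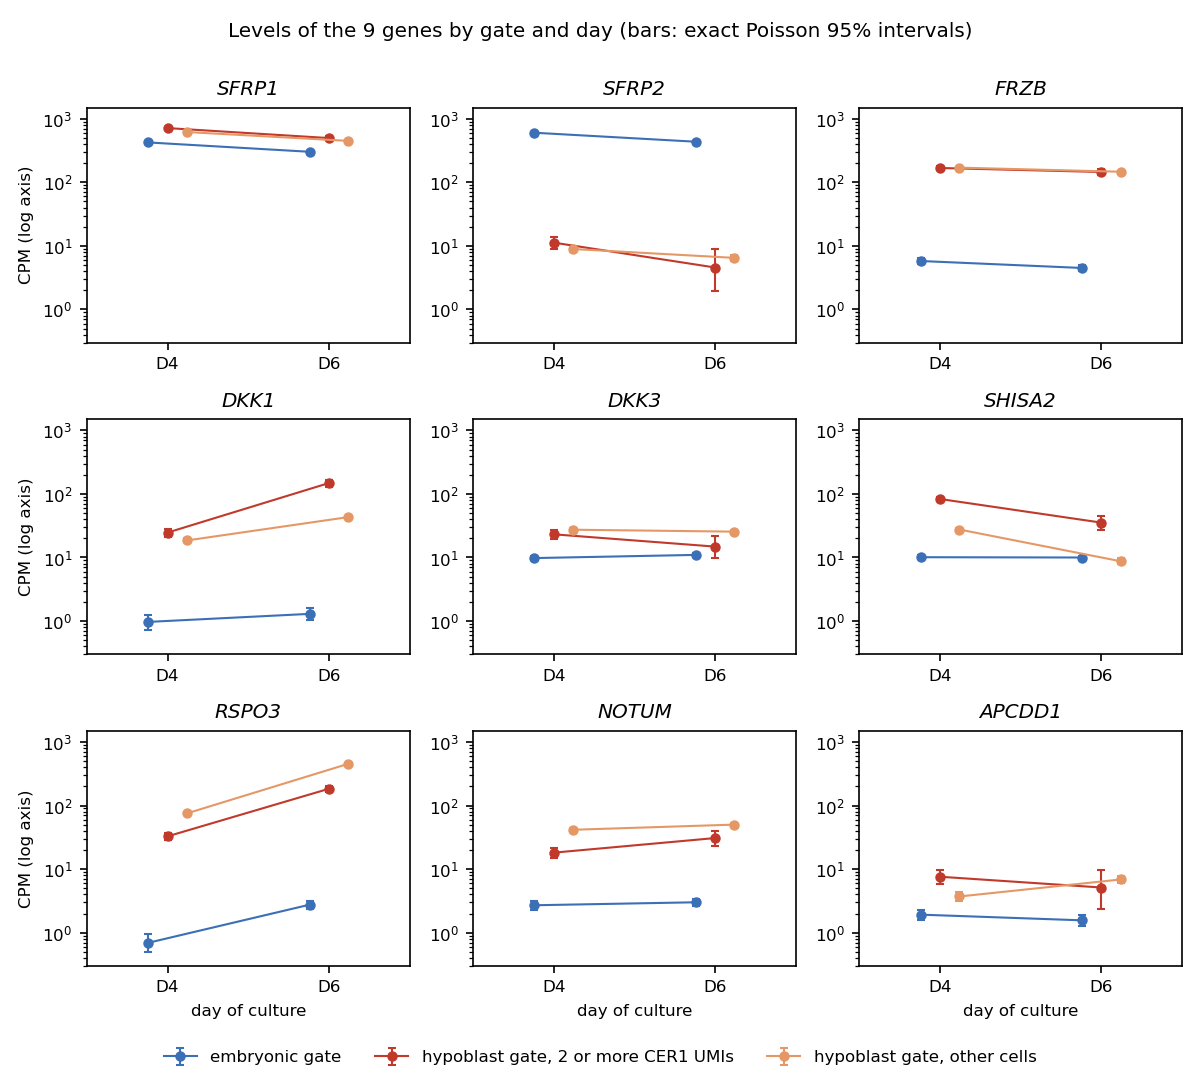
CPM (log axis) of each gene at D4 and D6 in the embryonic gate (blue), the CER1 cells (red) and the other hypoblast gate cells (orange); points are sums over the cells of 1 library, bars are exact Poisson 95% intervals, and lines join the days. *SFRP2* is high only in the blue points, *RSPO3* climbs from 75.4 to 454 in the orange points, and *SHISA2* and *DKK1* are higher in red than in orange on both days.

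The 3 Frizzled-related genes had 3 different patterns. *SFRP1* (ENSG00000104332), which binds WNT ligands and Frizzled, was abundant in both gates. Its level was 424 [419, 430] CPM in the embryonic gate at D4 and 303 [299, 307] at D6, and 633 [626, 641] and 451 [445, 458] in the hypoblast gate. The hypoblast gate was thus 1.49-fold above the embryonic gate on both days, with log2 ratios of 0.58 [0.55, 0.60] and 0.58 [0.55, 0.60]. From D4 to D6 both gates were lower by the same measure, with log2 ratios of −0.49 [−0.51, −0.46] and −0.49 [−0.52, −0.46], under 2-fold. A UMI of *SFRP1* was found in 98.4% of hypoblast gate cells at D4 and 95.6% at D6, and in 93.7% and 78.4% of embryonic gate cells. The last share was the lowest of these, and it remained so when every cell was thinned to the lowest depth kept: 50.9% against 67.9% in the embryonic gate at D4, and 74.0% and 86.0% in the hypoblast gate at D6 and D4.

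*SFRP2* (ENSG00000145423), whose protein binds WNT ligands in the same way, marked the embryonic gate. There, D4 cells had 603 [597, 610] CPM and D6 cells 436 [431, 440], and in the hypoblast gate it was 9.28 [8.44, 10.2] and 6.39 [5.65, 7.21]. The embryonic gate was 65.0-fold and 68.1-fold higher, log2 ratios of −6.02 [−6.16, −5.89] and −6.09 [−6.27, −5.92] for the hypoblast gate over it. Of embryonic gate cells, 99.4% had a UMI at D4 and 95.8% at D6. Of hypoblast gate cells, 9.73% and 6.67% had one, with a mean of 1.12 UMIs in those cells on both days.

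Free RNA in the droplets was gauged from genes of the other lineage. The level of *SFRP2* in the hypoblast gate was 1.54% and 1.47% of its level in the embryonic gate. For 6 embryonic genes that share was between 1.67% and 25.2% at D4 and between 1.66% and 26.6% at D6, lowest for *UTF1* at D4 and *ESRG* at D6. *SFRP2* in the hypoblast gate stood under the share of each of the 6 on both days. The part of free RNA in its level there was not tested. Its log2 ratio of −0.54 from D4 to D6 there stands beside −0.47 in the embryonic gate.

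*FRZB* (ENSG00000162998), the third of these WNT-binding genes, was placed the other way round. Its level was 5.78 [5.18, 6.43] and 4.49 [4.02, 5.00] CPM in the embryonic gate, and 170 [166, 174] and 147 [143, 150] in the hypoblast gate, for D4 and D6. The hypoblast gate was higher by log2 ratios of 4.88 [4.72, 5.04] and 5.03 [4.87, 5.19]. It was widespread: 77.2% of hypoblast gate cells had a UMI at D4 and 71.5% at D6. The 10% of cells with most UMIs held 31.0% and 32.4% of them. Its change over time was small, a log2 ratio of −0.21 [−0.26, −0.16]. In the embryonic gate *FRZB* was at 3.40% and 3.06% of its hypoblast gate level. The same share was taken for 6 genes of the hypoblast lineage. At D4 it was 1.28% for *APOA1*, 1.35% for *APOA2*, 1.66% for *TTR*, 3.70% for *VTN* and 10.9% for *APOC1*, and at D6 0.752%, 0.868%, 0.392%, 1.57% and 5.76%. *AFP*, the sixth, was higher in the embryonic gate at D4, with 1159%, and was at 11.0% at D6. *FRZB* lay within the range of these genes on both days. With *AFP* left out, this held at D6 only through *APOC1*, since the next share was 1.57%. *APOC1* had a UMI in 84.2% and 83.2% of embryonic gate cells, so its share is a poor gauge of free RNA. The part of free RNA in the level of *FRZB* in the embryonic gate was not tested.

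**Figure D2:**
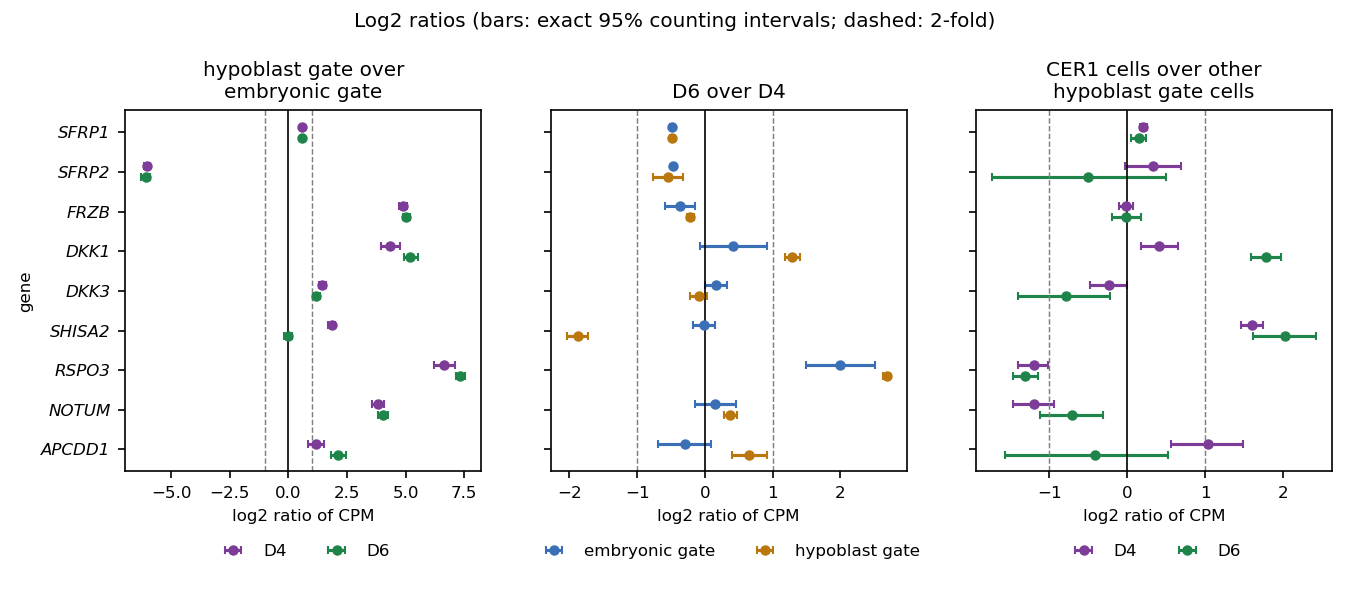
Log2 ratios of CPM for each gene with exact 95% counting intervals: hypoblast gate over embryonic gate at D4 (purple) and D6 (green), D6 over D4 in the embryonic (blue) and hypoblast (brown) gates, and CER1 cells over the other hypoblast gate cells at D4 and D6. Dashed lines mark 2-fold; *SHISA2* moves from 1.84 to −0.02 in the left panel, and *RSPO3* stands at 2.69 for the hypoblast gate in the middle one.

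The Dickkopf genes were both higher in the hypoblast gate. *DKK1* (ENSG00000107984), the LRP5 and LRP6 blocker whose promoter is printed above, was at 0.969 [0.732, 1.26] and 1.30 [1.05, 1.58] CPM in the embryonic gate at D4 and D6. In the hypoblast gate it was at 19.5 [18.3, 20.8] and 47.6 [45.6, 49.8], which gave log2 ratios between the gates of 4.33 [3.94, 4.75] and 5.20 [4.91, 5.51], and of 1.29 [1.18, 1.40] for D6 over D4. Its embryonic gate level was 4.97% and 2.72% of that in the hypoblast gate. Of the 6 hypoblast genes, only *APOC1* and *AFP* had a larger share, on both days. The part of free RNA in this level was not tested. The UMIs of *DKK1* lay in fewer cells than those of *FRZB*. A UMI was found in 12.7% of hypoblast gate cells at D4 and 19.4% at D6, and 5 or more UMIs in 0.886% and 2.92%. The 10% of cells with most *DKK1* UMIs held 88.3% and 83.1% of them, and the highest cell held 12 and 49. The share in the top 10% depends on how many cells have a UMI, and was not particular to *DKK1*. It was 100% on both days for *SFRP2* and *APCDD1* in this gate, and 69.6% and 100% for *SHISA2*.

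*DKK3* (ENSG00000050165) was at 9.79 [9.003, 10.6] and 11.0 [10.2, 11.8] CPM in the embryonic gate, and at 26.7 [25.3, 28.2] and 25.1 [23.6, 26.6] in the hypoblast gate. Log2 ratios between the gates were 1.45 [1.30, 1.59] and 1.19 [1.06, 1.32]. For D6 over D4 in the hypoblast gate the log2 ratio was −0.09 [−0.21, 0.03], an interval that includes 0. A UMI was found in 26.4% and 24.0% of hypoblast gate cells, and no cell of the gate held more than 5.

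*SHISA2* (ENSG00000180730), which retains Frizzled and FGF receptors inside the cell, was the only member whose placement between the gates was lost with time. The embryonic gate held 10.1 [9.30, 11.0] CPM on D4 and 10.00 [9.29, 10.7] on D6, for which D6 over D4 was −0.02 [−0.17, 0.14] on the log2 scale. In the hypoblast gate the level went from 36.2 [34.5, 37.9] to 9.84 [8.91, 10.8], a log2 ratio of −1.88 [−2.04, −1.72]. The log2 ratio between the gates was thus 1.84 [1.704, 1.98] at D4 and −0.02 [−0.20, 0.15] at D6. The share of hypoblast gate cells with a UMI was 23.0% [21.7, 24.3] at D4 and 7.54% [6.70, 8.46] at D6, or 10.5% and 3.06% after thinning.

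CER1 cells were a smaller part of the hypoblast gate at D6, and they held 35.5% of its *SHISA2* UMIs at D4 and 15.1% at D6, from 15.4% and 4.19% of all its UMIs. *SHISA2* was lower at D6 in both classes. In CER1 cells *SHISA2* went from 83.3 to 35.4 CPM, a log2 ratio of −1.24 [−1.64, −0.86]. In the other hypoblast gate cells it went from 27.6 to 8.72, a log2 ratio of −1.66 [−1.84, −1.49].

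*RSPO3* (ENSG00000146374) was the one agonist of the set and had the largest difference between days among the 9 in the hypoblast gate. In the hypoblast gate its level was 68.8 [66.5, 71.2] CPM at D4 and 443 [436, 449] at D6, a 6.43-fold difference with a log2 ratio of 2.69 [2.63, 2.74]. Both the number of cells and the UMIs in each were higher. Cells with a UMI made up 26.7% [25.4, 28.1] of the gate at D4 and 77.7% [76.3, 79.0] at D6, or 13.4% and 57.7% after thinning. Cells with 5 or more UMIs made up 5.10% and 40.3%, and cells with a UMI held a mean of 3.03 and 6.67. The 10% of cells with most UMIs held 72.6% at D4 and 38.3% at D6, so its UMIs were spread over more cells.

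In the embryonic gate *RSPO3* was at 0.692 [0.494, 0.942] and 2.75 [2.39, 3.16] CPM. That is 1.01% and 0.622% of its hypoblast gate level, under the shares of the 6 hypoblast genes at D4 and of all but *TTR* at D6, and 0.780% and 3.11% of embryonic gate cells had a UMI. *APOA1* itself went from 20.8 to 89.6 CPM in the embryonic gate, and from 1621 to 11926 in the hypoblast gate. Cells with 5 or more *RSPO3* UMIs were 0.0269% and 0.0594% of the embryonic gate, and the highest held 5 and 25. In embryonic gate cells with 8 or more UMIs of *TAGLN*, *RSPO3* was not even with the rest of the gate. It was at 10.9 against 2.48 CPM at D6, a log2 ratio of 2.14 [1.41, 2.80], from 21 UMIs. At D4 it was at 1.53 against 0.564, a log2 ratio of 1.44 [0.36, 2.44], from 13 UMIs. These cells were deeper, with medians of 17129 UMIs against 14197 at D6 and 17911 against 14682 at D4. The part of free RNA in the level of *RSPO3* in the embryonic gate, and in its log2 ratio of 1.99 [1.498, 2.52] for D6 over D4, was not tested.

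**Figure D3:**
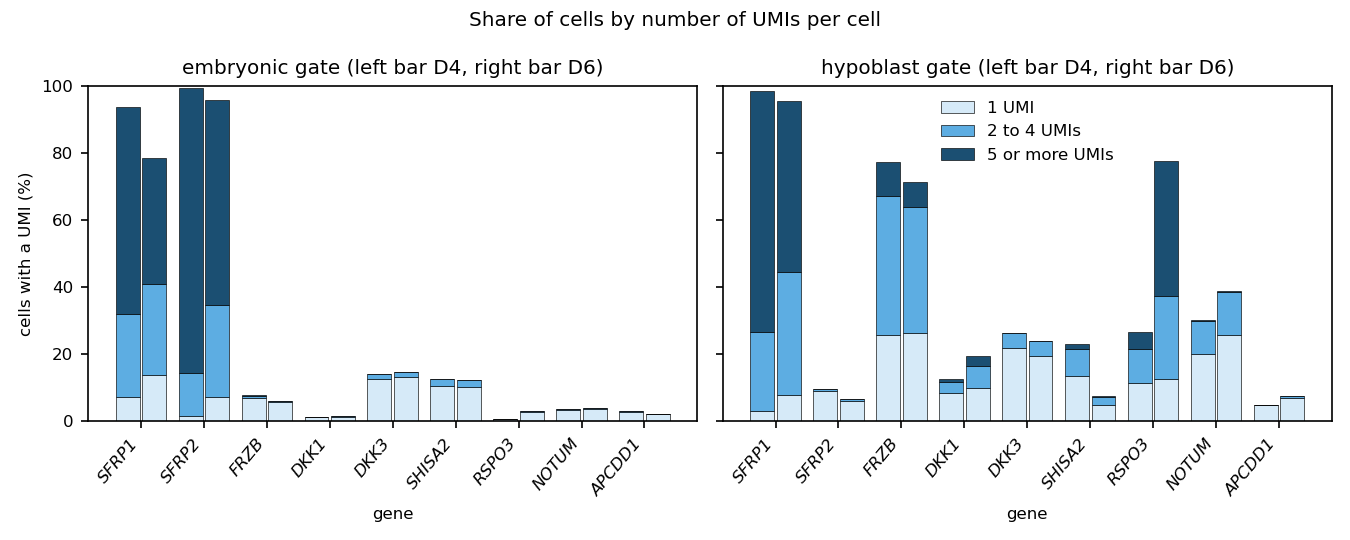
Percent of embryonic gate cells (left) and hypoblast gate cells (right) with 1, 2 to 4, or 5 or more UMIs of each gene, D4 in the left bar of each pair and D6 in the right bar, with all UMIs used. *RSPO3* goes from 26.7% to 77.7% of hypoblast gate cells, while the bars of *SFRP2* there stay at 9.73% and 6.67%.

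*NOTUM* (ENSG00000185269), the enzyme that strips the lipid from WNT ligands and is itself a target of the pathway in many tissues, was at 37.99 [36.3, 39.8] and 49.4 [47.3, 51.5] CPM in the hypoblast gate. The embryonic gate had 2.70 [2.29, 3.16] and 3.01 [2.63, 3.43]. Log2 ratios between the gates were 3.81 [3.58, 4.06] and 4.04 [3.84, 4.24], and D6 over D4 in the hypoblast gate was 0.38 [0.29, 0.47], under 2-fold. Its embryonic gate level was 7.11% and 6.09% of that in the hypoblast gate. At D4 this lay between the shares of *VTN* (3.70%) and *APOC1* (10.9%). At D6 it lay above the shares of all of the 6 hypoblast genes but *AFP*. The part of free RNA in this level was not tested. *APCDD1* (ENSG00000154856) was scarce, at 1.92 [1.58, 2.31] and 1.56 [1.29, 1.87] in the embryonic gate, and 4.31 [3.74, 4.94] and 6.80 [6.03, 7.64] in the hypoblast gate. Log2 ratios between the gates were 1.17 [0.83, 1.51] and 2.12 [1.80, 2.44].

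CER1 cells were compared with the other cells of the hypoblast gate, to see which members went with an AVE antagonist. In CER1 cells 8 AVE markers summed to 4608 and 3451 CPM, against 608 and 1092 in the others, a list that includes *CER1*. At D4, *SHISA2* and *APCDD1* were more than 2-fold higher in CER1 cells, and *RSPO3* and *NOTUM* more than 2-fold lower, which makes 2 and 2 of 9 members beside 4.15% and 6.65% of 17647 genes. At D6, *SHISA2* and *DKK1* were more than 2-fold higher and *RSPO3* lower, 2 and 1 of 9 beside 7.25% and 14.8% of 17225 genes. *SHISA2* had log2 ratios of 1.60 [1.45, 1.74] and 2.02 [1.61, 2.41], from 83.3 against 27.6 CPM at D4 and 35.4 against 8.72 at D6. *RSPO3* had log2 ratios of −1.20 [−1.40, −1.01] and −1.30 [−1.47, −1.15], from 32.8 against 75.4 and 184 against 454. These were the members past 2-fold on both days.

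*NOTUM* was at 18.2 against 41.6 CPM at D4 and 30.8 against 50.2 at D6, log2 ratios of −1.20 [−1.46, −0.94] and −0.70 [−1.12, −0.31]. *APCDD1* had a log2 ratio of 1.03 [0.56, 1.48] at D4, from 56 UMIs, and −0.42 [−1.56, 0.53] at D6, from 9. The D4 value of *APCDD1* went under 2-fold with other limits on cells, as low as 0.43 with stricter gates. *FRZB* was alike in both classes, with log2 ratios of −0.02 [−0.11, 0.07] and −0.01 [−0.20, 0.17], and *SFRP1* was at 0.21 [0.16, 0.25] and 0.15 [0.05, 0.24].

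The number of *CER1* UMIs in a cell was also used to grade the cells of the gate. At D4, *SHISA2* stood at 26.2 CPM in cells without *CER1*, then at 38.4, 47.7, 73.6 and 120 in cells with 1, 2 to 4, 5 to 9 and 10 or more *CER1* UMIs. *RSPO3* stood at 75.0, 78.4, 44.6, 42.4 and 17.8 in the same cells. *NOTUM* stood at 42.8, 32.0, 24.5, 19.3 and 11.8. At D4 *SHISA2* was thus higher in each class than in the one before it, and *NOTUM* lower, while *RSPO3* was alike in the first pair of classes. Intervals of neighbouring classes overlapped for *SHISA2* between 1 and 2 to 4 *CER1* UMIs, for *NOTUM* between each pair of neighbours with *CER1*, and for *RSPO3* between none and 1 and between 2 to 4 and 5 to 9. Median depth at D4 was 11708.5 UMIs in cells with 1 *CER1* UMI, between 12141 and 12340 in cells with more, and 10787 in cells without it. At D6, *SHISA2* was at 8.17 in cells without *CER1* and 43.3 in the 33 cells with 10 or more, and *RSPO3* at 459 and 154, at median depths of 10788 and 16408 UMIs.

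**Figure D4:**
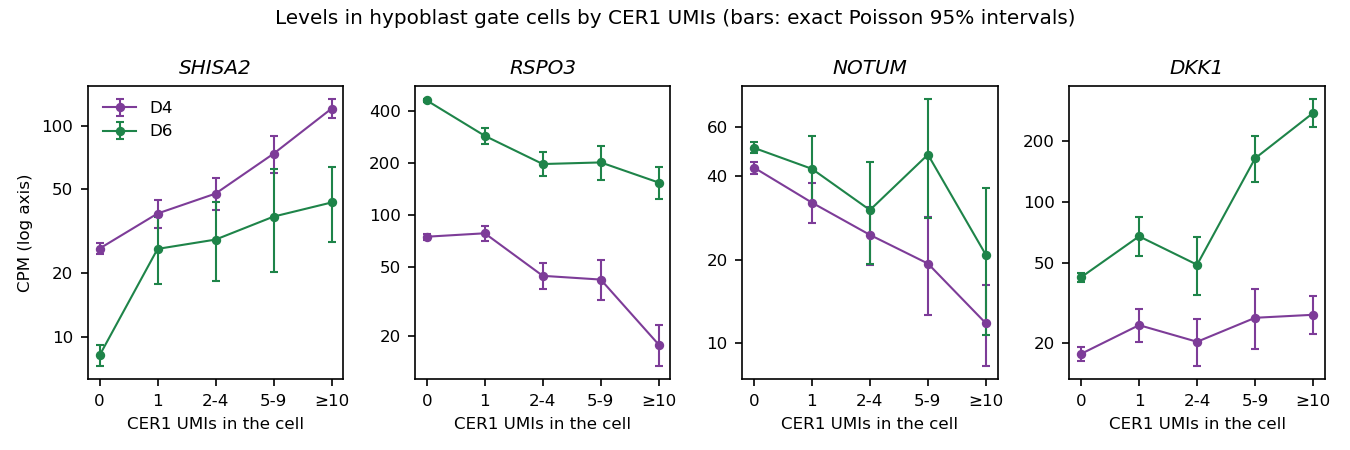
CPM (log axes) of *SHISA2*, *RSPO3*, *NOTUM* and *DKK1* in hypoblast gate cells grouped by their *CER1* UMIs, at D4 (purple) and D6 (green), with exact Poisson 95% intervals. *SHISA2* climbs from 26.2 to 120 at D4 and *RSPO3* drops from 75.0 to 17.8, and *DKK1* climbs to 275 at D6 only.

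*DKK1* was past 2-fold in CER1 cells at D6 and not at D4, a difference between days that was not tested. At D4 it was at 24.7 CPM in CER1 cells and 18.5 in the others, a log2 ratio of 0.41 [0.17, 0.65]. At D6 it was at 148 against 43.2, a log2 ratio of 1.78 [1.59, 1.97]. It was at 275 [234, 321] in cells with 10 or more *CER1* UMIs, from 159 UMIs in 33 cells. Few cells carried these values. Of CER1 cells at D6, 34.5% had a *DKK1* UMI, and the 10% with most held 74.6% of them. The highest cell held 49. Some CER1 cells also had UMIs of genes from other marker lists. *HAND1*, a mesoderm transcription factor, had a UMI in 22 of the 116 CER1 cells (19.0%) and in 1.30% of the other hypoblast gate cells at D6, and those 22 cells held 139 of the 260 *DKK1* UMIs of CER1 cells (53.5%). At D4 it had a UMI in 10 of 558 CER1 cells, which held 5 of 182 *DKK1* UMIs. The 8 mesoderm markers summed to 330 CPM in CER1 cells at D6 against 95.9 in the others, with *MSGN1* at 0 in both, and to 58.3 against 31.5 at D4. The 5 blood and endothelium markers summed to 156 CPM against 5.57 at D6. In CER1 cells *HBZ*, *PECAM1* and *CDH5* were at 0, so this sum came from only 2 of the 5 and does not stand for the list. At D6 *GYPB* had a UMI in 28 of the 116 CER1 cells (24.1%) and in 2.14% of the other hypoblast gate cells. Those 28 cells held 156 of the 260 *DKK1* UMIs of CER1 cells. At D4 it had a UMI in 30 of 558 CER1 cells, which held 25 of 182 *DKK1* UMIs. Without every cell that had a UMI of *HAND1* or *TBXT*, the log2 ratio of *DKK1* at D6 was 0.96, under 2-fold, while *SHISA2* and *RSPO3* stayed past it. The part of such cells in the *DKK1* level of CER1 cells was not tested.

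Members were then compared within single cells of the hypoblast gate, all thinned to the lowest depth kept so that deep cells did not pair genes. *RSPO3* was found in 4.47% [2.71, 6.89] of the 425 cells with a *SHISA2* UMI at D4, against 14.5% [13.4, 15.7] of the 3636 cells without one. At D6 the shares were 24.8% [17.0, 34.0] of 109 cells and 58.8% [57.1, 60.4] of 3458. The same was seen among cells that were no CER1 cells, with 4.67% [2.57, 7.71] against 15.4% [14.2, 16.7] at D4 and 24.7% [16.5, 34.5] against 59.8% [58.1, 61.4] at D6. *NOTUM* was found in 5.88% of cells with *SHISA2* against 12.5% without at D4, and in 6.42% against 16.4% at D6. *SHISA2* and *RSPO3* thus tended to lie in different cells of the gate, beyond the classes that *CER1* made. Among CER1 cells of D4 the shares, 4.00% [1.31, 9.09] and 7.62% [5.30, 10.5], had overlapping intervals. *FRZB* was found in 40.5% [35.8, 45.3] of cells with *SHISA2* against 42.1% [40.4, 43.7] without at D4, with overlapping intervals. *DKK1* went with *RSPO3* at D4, which was found in 22.8% [17.3, 29.2] of 206 cells with *DKK1* and 12.9% [11.9, 14.0] of the others. At D6 the shares were 65.0% [59.6, 70.2] and 57.0% [55.3, 58.7]. This was not particular to *DKK1* at D4. There, *RSPO3* was found in 16.6% [14.8, 18.4] of cells with *FRZB* and 11.2% [9.94, 12.5] without. For *DKK3* the shares were 18.0% [14.2, 22.3] and 13.0% [11.9, 14.1]. At D6 the intervals overlapped for both *FRZB* and *DKK3*.

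Finer states were made from UMIs of single genes and not from clusters, and each cell went to the first state it met, so the states taken first here leave out cells with 5 or more *HAND1* UMIs, a *TBXT* UMI or, in the hypoblast gate, 2 or more *CER1* UMIs. Among the hypoblast gate cells that remained, *RSPO3* was at 150 and 581 CPM, for D4 and D6, in those with 3 or more UMIs of *NPPB*. *NPPB* was not limited to them: it was at 886 and 2132 CPM in cells with 10 or more *CER1* UMIs, where *RSPO3* was at 17.8 and 154. *RSPO3* was at 119 and 494 in cells with 2 or more UMIs of *LCN15* or *APOA4*, genes of absorptive endoderm, and at 61.6 and 384 in the rest of the gate. *SHISA2* at D6 was lower in both states than in the rest, with 5.59, 5.01 and 13.8. In each of these states, and in CER1 cells with no *TBXT* and under 5 *HAND1* UMIs, *RSPO3* was higher at D6 than at D4, by log2 ratios between 1.95 and 2.64, and *SHISA2* lower, between −2.28 and −1.06. *FRZB* kept between 144 and 205 over these states of both days.

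**Figure D5:**
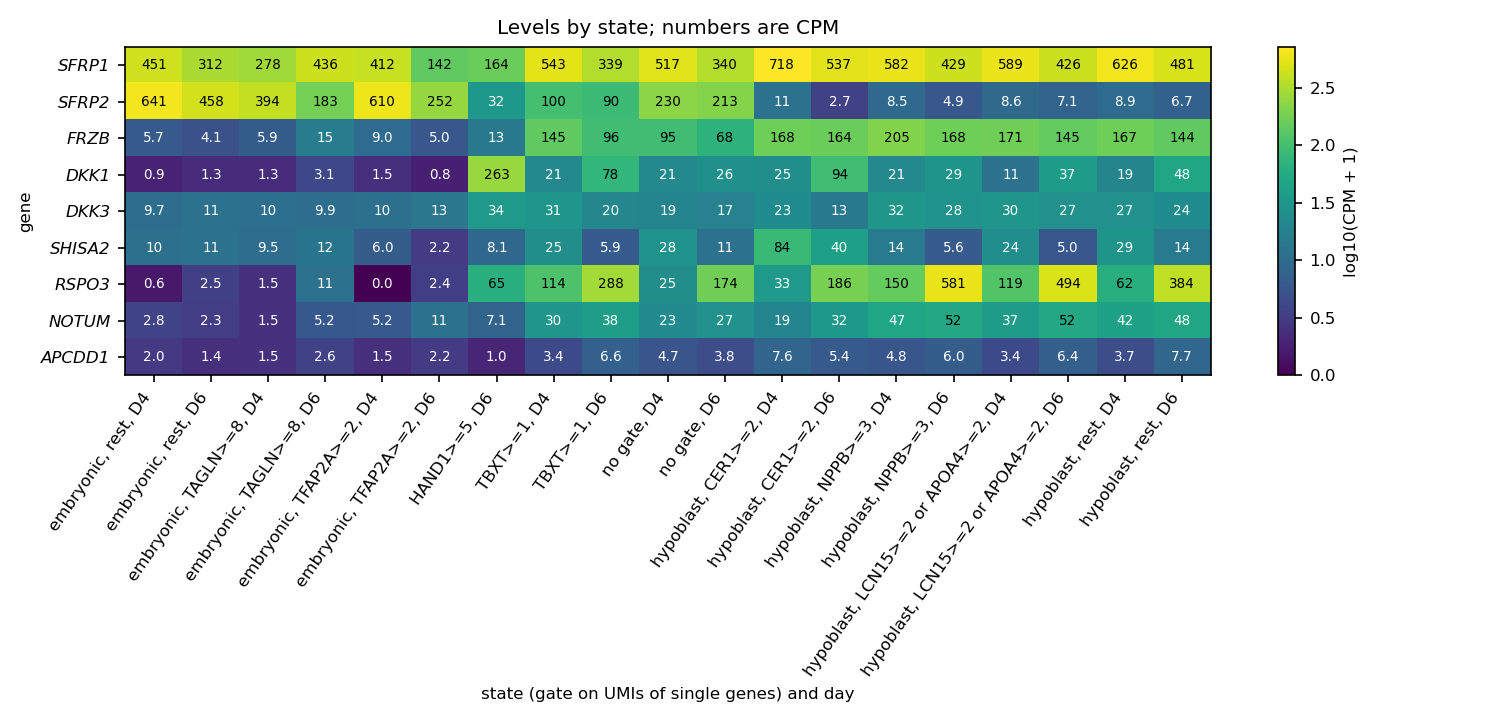
Levels of the 9 genes in states made from UMIs of single genes, by day; numbers are CPM, colour is log10(CPM + 1), and the single 0.0 is *RSPO3* with no UMI in 81 cells, where 3 counts would be 2.24. *SFRP2* is bright on the left, *FRZB* and *RSPO3* on the right, and *DKK1* at D6 in cells with 5 or more *HAND1* UMIs.

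Within the embryonic gate, 345 cells of D6 had 2 or more UMIs of *TFAP2A*, a transcription factor of the amnion. There *SFRP1* was at 142 CPM against 312 in the rest of the gate, a log2 ratio of −1.13 [−1.24, −1.02]. *SFRP2* was at 252 against 458, a log2 ratio of −0.86 [−0.94, −0.78]. *SHISA2* was at 2.19 against 10.6, from 11 UMIs, a log2 ratio of −2.27 [−3.28, −1.42]. *NOTUM*, in contrast, was higher there, at 10.5 against 2.30, a log2 ratio of 2.19 [1.72, 2.65]. The hypoblast genes *FRZB* and *RSPO3* had log2 ratios of 0.26 [−0.39, 0.85] and −0.06 [−1.04, 0.79] in the same cells. At D4 the 81 cells with 2 or more *TFAP2A* UMIs had *SFRP1* at 412 against 451 and *SFRP2* at 610 against 641, log2 ratios of −0.13 [−0.26, −0.01] and −0.07 [−0.17, 0.03]. *TAGLN* encodes an actin-binding protein, and 463 cells of D4 and 113 of D6 had 8 or more of its UMIs. At D4 both genes were lower there, *SFRP1* at 278 against 451 and *SFRP2* at 394 against 641, with log2 ratios of −0.70 [−0.76, −0.64] and −0.70 [−0.75, −0.65]. At D6 *SFRP2* was at 183, a log2 ratio of −1.33 [−1.48, −1.17], while *SFRP1* was at 436, a log2 ratio of 0.48 [0.38, 0.58]. *FRZB* was at 15.0 in these D6 cells against 4.14 in the rest, and at 5.89 against 5.67 at D4.

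At D6, 68 cells had 5 or more UMIs of *HAND1*, against 1 at D4, and 28 of them met the hypoblast gate and 3 the embryonic gate. *DKK1* was at 263 CPM in them, above the 1.29 of the embryonic rest and the 48.5 of the hypoblast rest, with log2 ratios of 7.67 [7.31, 8.03] and 2.44 [2.23, 2.64]. *FRZB* was at 13.2 and *NOTUM* at 7.10, log2 ratios to the hypoblast rest of −3.45 [−4.36, −2.68] and −2.77 [−4.09, −1.72]. *DKK3* was at 34.5 against 23.7 in the hypoblast rest and 10.8 in the embryonic rest, log2 ratios of 0.54 [−0.01, 1.05] and 1.68 [1.14, 2.17]. *RSPO3* was at 64.9, between the 2.48 and 384 of the embryonic and hypoblast rests. *SFRP1* was at 164 and *SFRP2* at 32.4. *CER1* itself was at 483 in these cells and at 754 in the D6 state of CER1 cells, so it was not limited to that state. Of the 68 cells, 8 were also CER1 cells by the gate. The hypoblast rest gives no comparison here, because its cells had under 2 *CER1* UMIs by the rule. A UMI of *TBXT*, which encodes Brachyury, was found in 181 kept cells of D6, of which 101 met the hypoblast gate and 25 the embryonic gate. Those 101 cells had *DKK1* at 121, a log2 ratio of 1.32 [1.08, 1.56] to the hypoblast rest, with *FRZB* at 144 as in the rest. Of their 178 *DKK1* UMIs, 77 lay in 6 cells that were also CER1 cells. At D4 the 59 such cells with under 5 *HAND1* UMIs had *RSPO3* at 147, a log2 ratio of 1.26 [0.98, 1.52], and *DKK1* at 25.5, a log2 ratio of 0.43 [−0.27, 1.05].

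Other genes of the pathway were counted as a list of 72. Of 61 with enough UMIs at D4, 19 were more than 2-fold higher in the hypoblast gate and 12 lower, with a median log2 ratio of 0.46 where all genes had −0.05. At D6, 17 of 65 were higher and 18 lower, with a median of 0.05. Of 9 pathway targets, 5 were higher and 2 lower on each day, with medians of 2.22 and 2.45. *SP5*, a transcription factor and direct target, was at 5.29 and 6.98 CPM in the embryonic gate and 147 and 159 in the hypoblast gate. *CCND1*, which encodes cyclin D1, was higher in the embryonic gate, at 232 and 215 against 47.2 and 64.4, as was *TCF7L1*, a repressor of the pathway, at 159 and 160 against 67.9 and 72.5. *CTNNB1*, which encodes β-catenin, was at 110 and 93.4 against 130 and 133. Of the R-spondin partners, a list of receptors, ligases and sister genes, 2 of 7 were higher in the hypoblast gate at D4 and 3 lower, where all genes had 15.2% and 16.5%. At D6, 1 of 8 was higher and 4 lower, where all genes had 14.7% and 22.2%. In CER1 cells, 6 of 54 other pathway genes, *CER1* itself among them, were higher at D4 and 6 lower, where all genes had 4.15% and 6.65%. At D6, 6 of 53 were higher and 8 lower, where all genes had 7.25% and 14.8%. Of the 9 targets, 1 was higher in CER1 cells at D4, 2 were lower and 6 were neither, with a median log2 ratio of 0.44. At D6, 1 was higher, 1 lower and 7 neither, with a median of −0.19. Among them, *SP5* was at 86.3 against 158 in CER1 cells at D4 and 96.5 against 162 at D6. *CCND1* was at 24.9 against 51.3 and 52.5 against 65.0, so these 2 do not stand for the list. *GPC4*, a heparan sulfate proteoglycan, was at 272 against 157 at D4 and 103 [88.3, 119] against 86.8 [83.9, 89.7] at D6. *GPC3* was at 168 [159, 178] in CER1 cells against 148 [145, 152] at D4. At D6 *GPC3* was lower in CER1 cells, at 27.97 [20.7, 36.97] against 69.2 [66.6, 71.8]. *IGFBP4* was at 64.5 [58.8, 70.6] against 85.7 [82.8, 88.6] at D4 and 102 [87.2, 118] against 90.1 [87.2, 93.1] at D6.

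The genes most like each member were listed by Pearson correlation of log2(CPM + 1) over 19 combinations of state and day, among 4421 genes at 50 CPM or more. These points come from 2 libraries and share cells' lineages, so r is a description. *SFRP2* was nearest to *FOXD3-AS1*, *POU5F1* and *PTPRZ1* (r of 0.98 for each), and *POU5F1* had set the gate. *FRZB* was nearest to *LINC02413*, *CCKBR* and *LINC00261* (0.99 for each). *RSPO3* was nearest to *APOA1*, *PITX1* and *FOLR1*, with r of 0.99, 0.99 and 0.98. *DKK1* was nearest to *CA2*, *ZAP70* and *LHX1* (0.97 for each). *LHX1* was on the list of AVE markers. The highest *DKK1* level of these points, 263 CPM, was that of D6 cells with 5 or more *HAND1* UMIs. It was 94.2 in the D6 state of CER1 cells. *NOTUM* was nearest to *SMAGP*, *PROS1* and *COL9A2*, with r of 0.97, 0.97 and 0.96. *SHISA2* and *SFRP1* had no close match: the nearest genes were *POLR2E*, *LEFTY2* and *PLD3*, with r of 0.84, 0.84 and 0.82, and *CCS*, *MRPL28* and *SAP30BP*, with r of 0.89, 0.85 and 0.84. *DKK3* and *APCDD1* did not reach 50 CPM in any state.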

How the data were processed

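For each day the authors deposited 1 table of UMI counts per gene and cell, made with Cell Ranger 6.0.1 on hg38, per the file headers and labels. The counts were not normalized. Cells were kept with 3430 to 27500 UMIs and at most 10% mitochondrial UMIs. Doublets were not called, and an alternative lowered the ceiling to 20000 UMIs. UMIs were summed over the cells of a gate and divided by all its UMIs, as counts per 1000000 (CPM). Levels have exact Poisson, shares exact Clopper-Pearson binomial and ratios exact conditional binomial 95% intervals, for counting error only, because each day had 1 library. A difference was called past 2-fold, over genes with at least 10 UMIs in both groups together. Cells were thinned to 3430 UMIs with a fixed seed. All 9 members were named, with the 8 other pathway genes of highest level, and the 3 genes most like each member at 50 CPM or more. Genes outside these lists serve as markers or controls. Members, gates and lists were chosen with earlier results of these data known, and the make-up of CER1 cells, the ratios between states and the pairs of genes within classes were examined after values had been seen. The method was tested on simulated Poisson counts with known changes. Those counts lacked the gathering of UMIs in few cells, so the test does not cover that spread. The 7 bisulfite libraries were not analysed here. Python 3.11.15, numpy 2.4.6, scipy 1.17.1 and pandas 2.3.3 were used. Promoters came from RefSeq (GRCh38.p14).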

Additional observations from a re-analysis of the deposited data

How the results depend on the processing

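Under 10 other settings, 540 values of 54 log2 ratios were recomputed (9 members in 6 comparisons). Of these, 483 moved by less than the counting interval of the ratio and 57 by more. The 483 include 54 values from each of 2 settings that could not move a ratio. Those settings changed only the UMIs a gene needed to be compared, to 1 or to 50. No ratio past 2-fold changed sign, and 11 values of 5 ratios, all between CER1 cells and the other hypoblast gate cells, crossed 2-fold. The number of members over 2-fold higher in CER1 cells at D4 went from 2 to 1, without *APCDD1*, with no cell filter, stricter gates, gates on CPM, or a mean over cells. At D6 the number higher went from 2 to 1, without *DKK1*, when cells with a UMI of *HAND1* or *TBXT* were left out. The number lower at D6 went from 1 to 2 with at most 20000 UMIs (*DKK3* added) or with thinning to the lowest depth kept (*SFRP2* added), and to 3 with stricter gates (*DKK3* and *NOTUM* added) or without *HAND1* and *TBXT* cells (*SFRP2* and *DKK3* added). For *SFRP2*, *DKK3* and *APCDD1* at D6, CER1 cells held 8, 26 and 9 UMIs. Between CER1 cells and the others, *SHISA2* and *RSPO3* were past 2-fold on both days under every setting run. No paired analysis was possible because each day had 1 library.

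Library, day and sequencing run cannot be told apart. Gates on UMIs depend on depth, and cells near a limit fall on either side by chance of sampling. The 3′ reads give no isoforms. Levels were compared between genes only to choose the pathway genes of highest level and to apply the limit in CPM for likeness. The words abundant for *SFRP1* and scarce for *APCDD1* are loose descriptions.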
